A study of Mus musculus with 8 samples.

Results

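Bmp10 encodes bone morphogenetic protein 10, a secreted growth factor of the TGF-beta family, and the CHD4 ChIP-seq peaks around this gene are described here. The region was the Bmp10 gene body on mm10 (chr6:87428994-87434512, plus strand, a gene of 5519 bp) with 100 kb added on each side (chr6:87328994-87534512). Peaks from the 4 lists that shared 1 bp or more were joined into a site, which gave 29 sites of the 121267 in the genome. The gene was chosen because its calls in these same lists differed between the groups, so its calls are given as a description and no test was made of them.

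BMP10 is made mainly by heart muscle cells, in the embryo for growth of the ventricular wall and after birth mainly in the atria. It binds the type 1 receptor ALK1, encoded by Acvrl1, on endothelial cells, together with a type 2 receptor and endoglin, and passes its signal to SMAD1, SMAD5 and SMAD9. CHD4 is the motor subunit of NuRD, a complex that moves nucleosomes and removes acetyl groups from histones, and TBX5 is a DNA-binding factor needed for heart development and for atrial gene expression.

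Atria, right and left, were taken from Tbx5 flox/flox mice given an AAV9 vector at postnatal day 2. In one group the vector carried Cre recombinase and in the other EGFP, each under Nppa sequence, which is active in atrial cardiomyocytes, and the atria as sampled hold other cells as well. All animals thus carried floxed Tbx5, and fewer cardiomyocytes, less CHD4 at each copy of the locus and weaker enrichment of a library cannot be told apart in such tissue. There were 2 libraries titled control and 2 titled TBX5 KO, and the groups follow the titles. Those libraries carry genotype and treatment labels that state the reverse, and the treatment text calls the Cre animals CHD4 knockouts, so each direction rests on the titles. The sources used here give neither the age at collection nor whether replicates were single animals or pools, so the spread between replicates may be technical.

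The lists held 99924 and 91520 peaks for the control and 61173 and 69557 for the TBX5 KO libraries. For each peak the authors' peak caller gave a fold, which is the pileup of fragments at the summit over the local background, and a −log10 p. Pileup and background were solved from these 2 values, and a pileup was divided by the background of the genome in its library (10.1, 10.3, 10.7 and 13.4 fragments in control 1, control 2, TBX5 KO 1 and TBX5 KO 2). A site without a call may still be bound: at genome background the lowest pileup called was 22 fragments in TBX5 KO 1 and 26 in TBX5 KO 2, or 2.06 and 1.94 times background. Cell type markers fixed for the tissue cannot be checked for expression in peak lists. All 5 atrial cardiomyocyte markers (Myl7, Nppa, Sln, Myh6 and Tnnt2) had a site in both control libraries, but so did all 3 endothelial, all 3 fibroblast, both smooth muscle and both epicardial markers, 1 of 3 macrophage markers and 1 of 3 markers of other organs. Of the marker sites in both control libraries, 4 of 14 atrial cardiomyocyte sites were control-only (1.62 at the genome's shares by strength), 8 of 38 endothelial (11.6), 0 of 17 fibroblast (5.1), 1 of 7 smooth muscle (1.59), 1 of 5 epicardial (1.57), 2 of 4 macrophage (1.32) and 0 of 1 at the markers of other organs. Control-only means called in both control and neither TBX5 KO library, as 24.9% of all sites in both control libraries were, and the part of cell makeup in the other results was not tested.

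The sequences before 3 transcription starts of the region are shown because the libraries differed there. These were the starts in the promoter list used here that lay under a called peak. That list held no start for Antxr1, whose near end (chr6:87335809) lay under a peak in all 4 libraries, so no sequence is shown for it. Control 1 and control 2 had a peak over all 3 starts. TBX5 KO 1 had one over the starts of Gkn3 and of a shorter transcript of Arhgap25 but not over that of Bmp10, and TBX5 KO 2 had one over none of the 3. Each runs over the 250 bases before the start, 5′ to 3′ on the strand of the gene, from RefSeq on GRCm38.p6, and the coordinates are chr6:87428744-87428993 (plus strand) for Bmp10, chr6:87388936-87389185 (minus strand) for Gkn3 and chr6:87496328-87496577 (minus strand) for Arhgap25. Capitals mark AGATAA, a motif known for GATA factors, and TNAAGTG, one known for NKX2-5.
Bmp10: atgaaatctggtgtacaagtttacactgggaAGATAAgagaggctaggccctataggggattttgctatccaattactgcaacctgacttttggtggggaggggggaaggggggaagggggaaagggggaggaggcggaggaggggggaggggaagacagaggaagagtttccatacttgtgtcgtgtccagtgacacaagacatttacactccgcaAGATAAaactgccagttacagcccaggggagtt
Gkn3: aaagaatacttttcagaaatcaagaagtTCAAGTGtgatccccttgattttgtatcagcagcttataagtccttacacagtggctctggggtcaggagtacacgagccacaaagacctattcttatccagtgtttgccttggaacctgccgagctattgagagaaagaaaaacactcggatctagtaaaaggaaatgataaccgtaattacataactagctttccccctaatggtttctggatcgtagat
Arhgap25: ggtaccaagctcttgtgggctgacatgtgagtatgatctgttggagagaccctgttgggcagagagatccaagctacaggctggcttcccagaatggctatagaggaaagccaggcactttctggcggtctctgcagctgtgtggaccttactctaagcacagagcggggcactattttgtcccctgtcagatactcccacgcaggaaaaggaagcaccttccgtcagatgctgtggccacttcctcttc

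In the Bmp10 sequence the GATA motif AGATAA occurred at 219 to 214 and again at 33 to 28 bases before the start, on the gene's strand both times. At least 1 AGATAA on either strand was present in 9.99% of the 32851 promoters of the same length. The T-box motif AGGTGT was in none of the 3 sequences and in 11.8% of all promoters, the TEAD motif GGAATG in none of the 3 and in 12.6%, the TATA box TATAAA in none of the 3 and in 12.4%, and the MEF2 motif in none of the 3 and in 0.508%. The NKX2-5 motif TNAAGTG was found in the Gkn3 sequence alone of the 3 and in 10.1% of all promoters. The E-box CANNTG, which reads the same on both strands and is not in capitals, was in the Gkn3 sequence (where it overlapped the NKX2-5 motif) and in that of Arhgap25, and in 66.2% of all promoters. The Bmp10 sequence held 3 CpG dinucleotides, that of Gkn3 5 and that of Arhgap25 4, against a median of 6 over all promoters. Such matches describe the letters of these windows and are not binding sites.

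In control atria CHD4 formed a dense group of peaks around Bmp10, and most of it was not called in the TBX5 KO lists. The region held 26 peaks in control 1 and 29 in control 2, but 6 in TBX5 KO 1 and 7 in TBX5 KO 2. These peaks covered 26509 and 29140 bp in control 1 and 2 and 2153 and 3072 bp in TBX5 KO 1 and 2, with no overlap of the groups. The groups did not overlap over the whole lists either, where peaks covered 97 and 86.7 Mb in control and 47.6 and 57.5 Mb in TBX5 KO libraries. In the region the ratio of the group means was 10.7, and the 4 ratios of a control to a TBX5 KO library ran from 8.63 to 13.5 (SD 2.31 over these pairs, which share libraries). It was 34.7 with peaks of −log10 q of at least 5, and 36.6, 23.1 and 4.24 with 10, 50 and 250 kb on each side of the gene. As a share of everything its peaks covered in the genome, the region held 0.0273% and 0.0336% for control 1 and 2 and 0.00452% and 0.00535% for TBX5 KO 1 and 2, a higher share in both control lists.

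Control peaks were also wider and stronger. Their median width was 861 and 781 bp, with a widest peak of 5803 bp in control 1, against medians of 305 and 358 bp in TBX5 KO 1 and TBX5 KO 2. Over the whole lists control peaks were wider too, with medians of 616 and 628 bp against 546 and 569 bp. Folds ran from 2.08 to 7.83 in control 1 and from 2.10 to 9.21 in control 2. In TBX5 KO 1 they ran from 2.05 to 2.74, and in TBX5 KO 2 from 2.01 to 3.12. Ranked by −log10 p within its own list, the strongest peak of the region stood at percentile 91.2 and 95.9 in the control lists and at 41.6 and 63.7 in the TBX5 KO lists. The top peak of the region thus ranked high in the control lists and middling in the TBX5 KO lists. The median peak stood at percentile 43.3 and 50.8 in control 1 and 2 and at 28.4 and 34.7 in TBX5 KO 1 and 2.

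**Figure D1:**
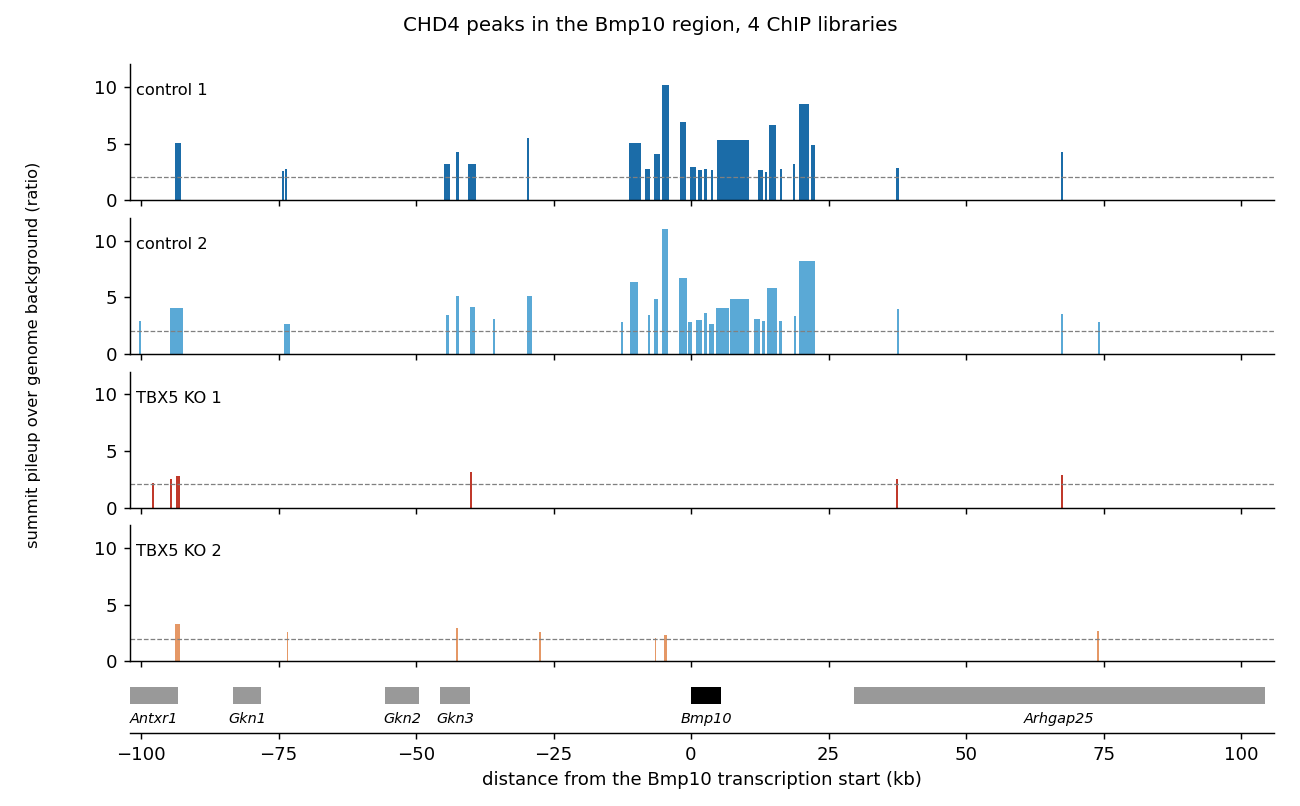
CHD4 peaks of the 4 ChIP libraries by distance from the Bmp10 start (x, kb). Each bar spans a peak, its height is the summit pileup over the genome background of its library (y, ratio), dashed lines mark the lowest value called at genome background, and boxes are protein-coding genes. Control peaks crowd around the gene, in a stretch of 77.2 kb where TBX5 KO 1 had no peak and TBX5 KO 2 had 3, all upstream of the start.

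Of the 29 sites, 22 were called in both control libraries. Of these 22, 14 (63.6%) were control-only, meaning called in neither TBX5 KO library, against 24.9% of all sites in both control libraries. A further 7 were called in 1 TBX5 KO library (19.2% of all such sites) and 1 in all 4 libraries (55.8% of all such sites). TBX5 KO 1 called 4 of the 22 and TBX5 KO 2 called 5, against 62.2% and 68.7% of all sites in both control libraries. The only site that both TBX5 KO libraries called was also in both control libraries, so no site was TBX5 KO-only (1.91% of all sites in both TBX5 KO libraries). The remaining 7 sites were called in 1 control library alone (4), 1 TBX5 KO library alone (2) or control 2 with TBX5 KO 2 (1). Since the gene was chosen on these calls, the comparison with the genome is a description. In lists cut to an equal length of 61173 peaks, 8 of 13 sites (61.5%) were control-only, against 14.8% of all sites in both control libraries of those lists.

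The strongest control site lay upstream of the gene, with its summit 4.8 kb before the start (chr6:87423734-87424942, between genes). Its fold was 7.28 in control 1 (percentile 91.2, width 1209 bp) and 9.21 in control 2 (percentile 95.9, width 1084 bp), with summits 19 bp apart. TBX5 KO 2 had a peak of 546 bp there with a fold of 2.22 (percentile 17.4), and TBX5 KO 1 had none. Both controls were thus far above the one TBX5 KO call. Pileup over background was 10.2 and 11 in control and 2.31 in TBX5 KO 2, or 0.218 times the control mean. In TBX5 KO 1 it was below 0.194 times the control mean, if the local background there was at genome level. In the genome 3170 sites had a control pileup within 10% of this one. Their median TBX5 KO 2 to control ratio was 0.571, and 1.01% had a ratio as low or no call in that library, while 1.26% had no call in TBX5 KO 1.

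The second strongest control site had its summit 20.7 kb after the start and was control-only (chr6:87448676-87451599, between Bmp10 and Arhgap25). Its strongest peak had a fold of 7.83 in control 1 (percentile 89.9) and 7.54 in control 2 (percentile 91.1), with summits 82 bp apart. The control lists differed in shape there, with peaks of 1675 and 850 bp in control 1 and a single peak of 2840 bp in control 2. A site that lost its call from this height was rare in the genome. Pileup over background was 8.51 and 8.18 in control. The TBX5 KO values were thus below 0.247 and 0.232 times the control mean, if the local background there was at genome level. Of the 4414 sites of like control pileup, 2.11% were control-only.

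The site nearest upstream of the promoter was of the same kind. It had its summit 1.2 kb before the start (chr6:87426892-87428195), a fold of 6.39 in control 1 (percentile 85, width 1178 bp) and 6.21 in control 2 (percentile 85.9, width 1304 bp), and no call in TBX5 KO atria. Of 5595 sites of like control pileup, 4.63% were control-only. The control replicates placed this summit within 19 bp of each other.

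The promoter itself and the gene body short of its end carried weaker CHD4 signal. One site joined the peaks over the start with those of the first part of the gene (chr6:87428469-87430959), and at the start the fold was 2.79 in control 1 (percentile 36.1, width 1171 bp) and 2.66 in control 2 (percentile 30.8, width 781 bp). Further into the gene the same site had folds of 2.52 and 2.84. The fold at the start was thus well under that of the site 1.2 kb upstream in both control libraries, and close to that of the next sites within the gene. Sites with summits 2.5 and 3.8 kb after the start (chr6:87431370-87431887 and chr6:87432339-87433189) had folds of 2.61 and 3.37, and of 2.52 and 2.48. The 4 sites that touch the gene body were all control-only. For the 3 weak ones this says little, since 53.6%, 47.6% and 63.8% of genome sites of like control pileup were control-only too.

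The widest site of the region began within the gene and ran past its end (chr6:87433511-87439621, 6111 bp). Control 1 had 1 peak of 5803 bp with a fold of 4.95 (percentile 76.5), and control 2 had peaks of 2413 and 3448 bp with folds of 3.81 and 4.52 (percentiles 64.3 and 73.7). The control 1 summit and that of the 2413 bp peak of control 2 lay within the gene, 5.3 and 5.1 kb after the start. The gene body was covered by peaks over 55.8% of its length in control 1 and 65.7% in control 2, and over 0% in both TBX5 KO libraries. At this site 11.4% of the 8707 sites of like control pileup were control-only. The exons could not be placed, because the gene table used here gives only the ends of each gene.

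Both sides of the gene held further control-only sites of middling strength. The site 10.4 kb before the start (chr6:87417805-87419935) had folds of 4.68 and 5.85, and the one 14.6 kb after it (chr6:87442792-87444578) had folds of 4.95 and 5.41. Control-only sites made up 8.41% and 6.44% of genome sites of like control pileup. The site 29.6 kb before the start (chr6:87399114-87400036) had folds of 2.59 and 3.57, where the local background of control 1 was 2.08 times that of the genome, and 9.58% of like sites were control-only. Those like sites were matched on pileup over genome background, which leaves out the raised local background. By its mean percentile in the control lists this site was in decile 5 of the genome's sites, where 24.7% were control-only. The sites 7.7 kb before and 12.4, 16.3 and 18.9 kb after the start were weak, with folds of 2.08 to 3.19, and 46.1% to 58.5% of like sites were control-only. One site between these, 6.5 kb before the start, had folds of 3.58 and 3.65 in control and kept a call in TBX5 KO 2 with a fold of 2.01 (percentile 4.49, width 330 bp).

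**Figure D2:**
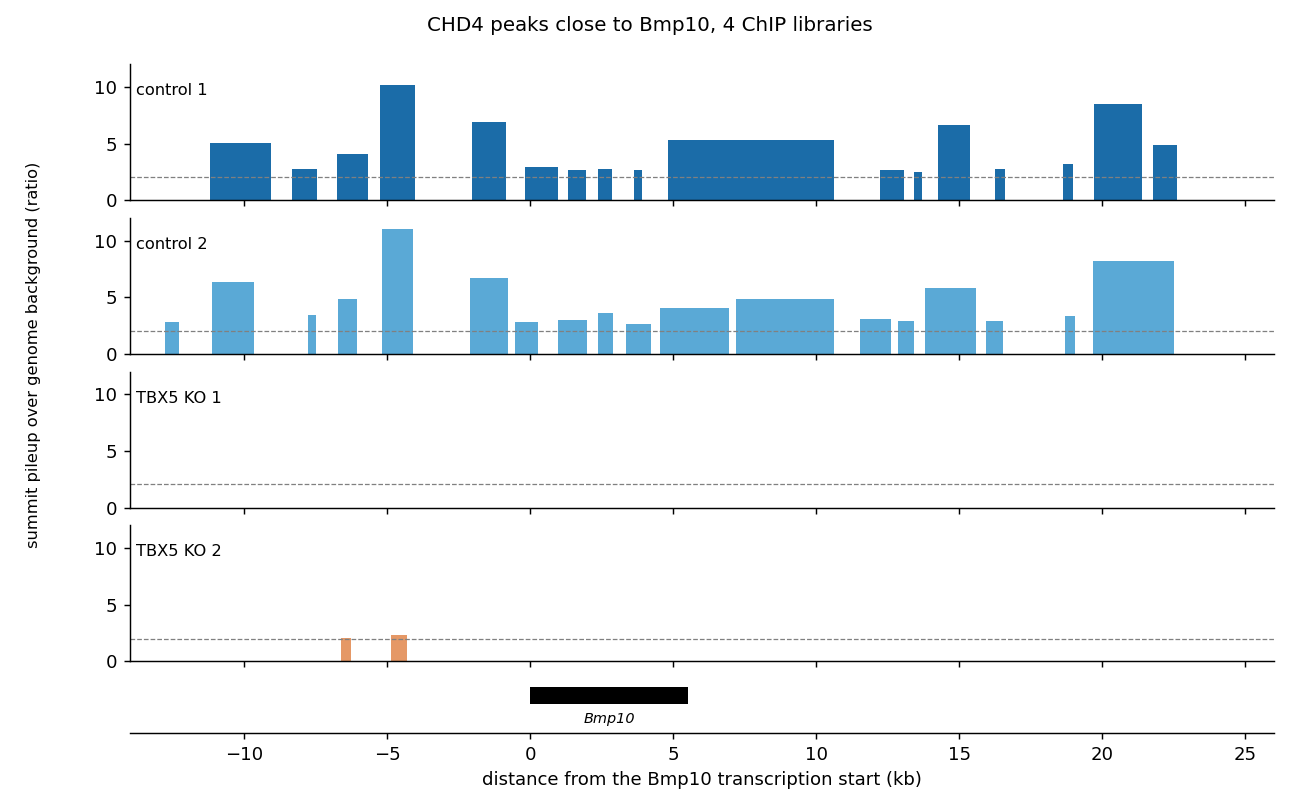
The same peaks from 14 kb before to 26 kb after the Bmp10 start (x, kb), with the summit pileup over genome background (y, ratio). Dashed lines mark the lowest value called at genome background. The tallest control bars stand 4.8 kb before and 20.7 kb after the start, and the 2 peaks of TBX5 KO 2, at 2.09 and 2.31, are near its dashed line at 1.94.

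Calls were lost at strong control sites as well as weak ones. Of the 22 sites, 7 had a mean control pileup of at least 5 times background, a limit set after the values were seen. Of these, 6 were control-only and the other, 4.8 kb before the start, kept a weak call in TBX5 KO 2, against 4.01% control-only among the 27324 sites of the genome at or over that limit. Among the 6, the site 5.3 kb after the start passed as the mean of 5.34 in control 1 and 4.87 in control 2, from summits 2510 bp apart. The site 29.6 kb before the start passed on a control 1 local background of 2.08 times that of the genome. By control rank it was in decile 5, where 24.7% of sites were control-only. Of the 15 weaker sites, 8 were control-only and 7 kept a call in at least 1 TBX5 KO library. Within the region 7 of 15 weaker and 1 of 7 stronger sites thus kept a call, while in the genome the share of control-only sites fell from 64.1% in the lowest to 0.426% in the highest decile of control rank. Given their deciles, the 22 sites would hold 6.25 control-only sites at the genome's shares.

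Pileup was lower in the TBX5 KO libraries at kept sites as well. At sites called in all 4 libraries the median TBX5 KO to control pileup over background was 0.645 in TBX5 KO 1 and 0.64 in TBX5 KO 2. With their control pileup lowered by these factors, 15 of the 22 sites would still reach the lowest pileup called at genome background in both TBX5 KO libraries. Of these 15, 8 (53.3%) were control-only and 1 was called in all 4, against 16.5% control-only among the 54623 such sites of the genome. This count was added after the data were seen, and its factors come from sites that kept their calls.

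**Figure D3:**
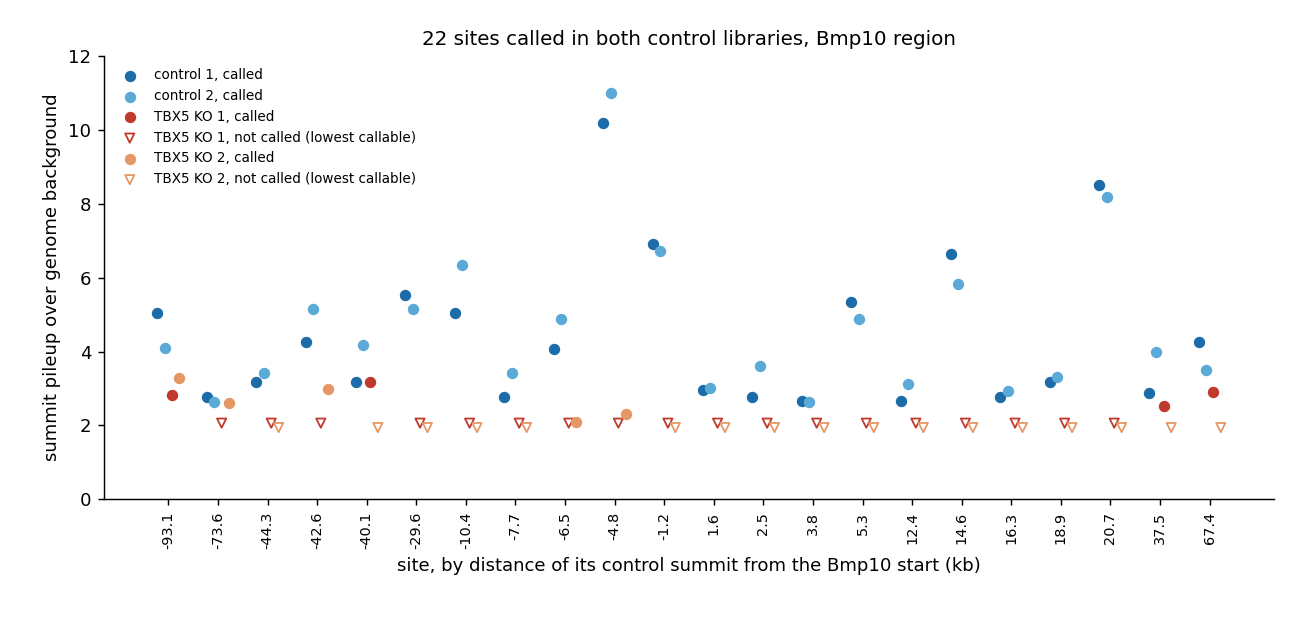
Summit pileup over genome background (y, ratio) at the 22 sites called in both control libraries, in order along the locus by distance of the control summit from the Bmp10 start (x, kb). Filled points are called peaks, the strongest of a library where it had several. Open triangles mark libraries without a call, at the lowest value called at genome background. The control points reach 11 and the TBX5 KO points stay at or below 3.28.

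**Figure D4:**
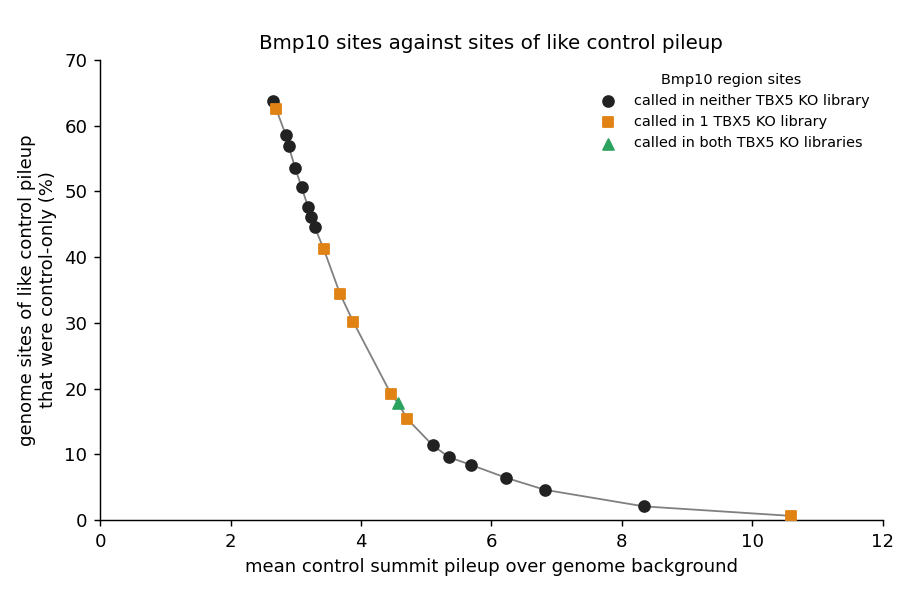
The same 22 sites by mean control pileup over genome background (x, ratio) against the percentage of genome sites within 10% of that pileup that were control-only (y). Symbols give the number of TBX5 KO libraries that called the site, and the line joins the points. Below a pileup of 5 the symbols are mixed, and above it 6 of 7 sites were called in neither TBX5 KO library.

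Over Bmp10 and the first stretch on its downstream side neither TBX5 KO list had a peak, while TBX5 KO 2 called scattered peaks upstream. Between the TBX5 KO 2 peak that ends 4.3 kb before the start and the TBX5 KO 1 peak that begins 37.3 kb after it, or 31.8 kb past the end of the gene, neither TBX5 KO list had a peak over 41.6 kb. Control 1 and control 2 each had 13 peaks in that stretch, covering 36.2% and 42.2% of it, and all 10 sites called there were in both control libraries. These 10 consecutive control-only sites spanned 24.7 kb (chr6:87426892-87451599). Of the 11564 runs of control-only sites in the genome the median run had 1 site, 11 had at least 10, and the longest had 24.

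Each TBX5 KO library on its own had a longer gap. TBX5 KO 1 had no peak over 77.2 kb, from 39.9 kb before to 37.3 kb after the start, a stretch with 15 sites in both control libraries. TBX5 KO 2 had none over 78.2 kb, from 4.3 kb before to 73.8 kb after the start, with 12 such sites. The longest gap between peaks in the region was 29.5 kb in control 1 and 29.6 kb in control 2. The libraries thus shared the gap over the gene and its downstream side but not its far ends.

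Upstream, TBX5 KO 2 called the sites 4.8 and 6.5 kb before the start and a place 27.5 kb before it (chr6:87401288-87401556, between genes), with a peak of 269 bp and a fold of 2.50 (percentile 36.8) that no other library had. Calls of TBX5 KO 1 returned at Gkn3, a gastrokine gene whose product is secreted by the stomach lining. The site at the Gkn3 start, 40.1 kb before that of Bmp10 (chr6:87388509-87389907), had folds of 2.97 and 3.89 in control and 2.57 in TBX5 KO 1 (percentile 39), with no call in TBX5 KO 2. A site inside Gkn3, 42.6 kb before the start (chr6:87386192-87386816), had folds of 3.38 and 4.10 in control and 2.47 in TBX5 KO 2 (percentile 42.4), with no call in TBX5 KO 1. The third site in Gkn3, 44.3 kb before the start, was control-only, with folds of 2.97 and 3.13. The TBX5 KO libraries thus called different sites of this gene, each on 1 weak peak. Of genome sites with a control pileup like that at the Gkn3 start, 44.7% had no call in TBX5 KO 2. For the site 42.6 kb before the start, 30.2% of like sites had no call in TBX5 KO 1.

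Farther upstream the gastrokine genes Gkn2 and Gkn1 had no site called in both control libraries in their bodies. A weak site between genes, 73.6 kb before the Bmp10 start (chr6:87355083-87356071), had folds of 2.61 and 2.48 in control and 2.46 in TBX5 KO 2. The first site called in all 4 libraries ended 92.3 kb before the start (chr6:87334181-87336718), over the near end of Antxr1, which encodes a cell surface receptor for anthrax toxin. Its folds were 4.68 and 3.81 in control (percentiles 74.3 and 64.3), 2.65 in TBX5 KO 1 (percentile 36.6) and 3.12 in TBX5 KO 2 (percentile 63.7). This site had a control pileup of 4.57 times background, less than that of the 7 strongest sites of the region.

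Downstream, the loss ended for TBX5 KO 1 at Arhgap25, a gene active in blood cells whose near end lies 24.0 kb past the end of Bmp10. A site within that gene, 37.5 kb after the Bmp10 start (chr6:87466274-87466769), had folds of 2.56 and 2.85 in control and 2.40 in TBX5 KO 1. The site at the start of the shorter Arhgap25 transcript, 67.4 kb after the Bmp10 start (chr6:87496223-87496568), had folds of 3.96 and 3.28 in control and 2.74 in TBX5 KO 1 (percentile 41.6). At both sites the fold of TBX5 KO 1 was below that of either control library, and TBX5 KO 2 had no call. TBX5 KO 2 had its first downstream peak 74.0 kb after the start, with a fold of 2.26, at a place that control 2 called with 2.42 and control 1 did not.

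Downstream no site of the region was called in all 4 libraries. The first one lay 148.0 kb past the end of Bmp10, in Prokr1, the gene of a prokineticin receptor (chr6:87582481-87582968), with folds of 3.24 and 3.46 in the control and 3.12 and 2.91 in the TBX5 KO libraries. Between the all-4 sites on both sides lay 245.8 kb with 23 sites in both control libraries, of which 16 were control-only and 7 were called in 1 TBX5 KO library. Among neighbours there, the kept site was the stronger in some pairs and the weaker in others. Mean control pileup over background was 10.6 at the kept site 4.8 kb before the start and 6.82 at the lost one 1.2 kb before it. On the downstream side the site kept by TBX5 KO 1 in Arhgap25 had folds of 2.56 and 2.85, while the nearest site on the Bmp10 side, without a TBX5 KO call, had 7.83 and 7.54.

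Counted over the gene body plus 10 kb on each side, 9 of 11 Bmp10 sites (81.8%) were control-only. Of 2091 protein-coding genes with at least 8 sites in both control libraries in that window, 9 (0.43%), Bmp10 among them, had a share this high, and the median was 25%. Since Bmp10 was chosen on these calls, a high place among these genes was built into the choice and is no test of it. Over the 4 libraries the Bmp10 sites were called at 100%, 100%, 0% and 18.2% in control 1, control 2, TBX5 KO 1 and TBX5 KO 2. The most similar of these genes by Euclidean distance over the 4 shares was Ryr3, a calcium release channel gene (7 of 8 sites control-only, distance 0.137). Next came Ctnnbl1, a gene of a spliceosome-associated protein (5 of 8, 0.259), Nav3, a neuron navigator gene (11 of 13, 0.268), Abcc9, which encodes a regulatory subunit of ATP-sensitive potassium channels (6 of 12, 0.268), and Cilp2, a cartilage matrix protein gene (5 of 9, 0.273). With 4 libraries this likeness rests on few values.

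With the same 100 kb on each side, the comparison genes Gja5, Ryr2 and Nppa gave shares above and below that of Bmp10. At Gja5, the connexin 40 gene, 9 of 13 sites in both control libraries were control-only (69.2%, 3.94 at the genome's shares by decile), and the other 4 kept all 4 calls. At Ryr2, the cardiac calcium release channel gene, 74 of 87 were control-only (85.1%, 34.8 by decile) in a window of 753.8 kb. At Nppa, the atrial natriuretic peptide gene, 3 of 23 were (13%, 3.55 by decile) and 12 were called in all 4. Sites in the Bmp10 region had a median control rank of 57.1, close to that at Gja5 (56.4), above that at Ryr2 (37.6) and below that at Nppa (74.6). These differences between genes were not tested, since the genes were named with their calls known.

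At the other 29 listed genes of the BMP pathway, with 10 kb added on each side, 36 of 169 sites in both control libraries were control-only (21.3%), beside 24.9% of all sites and 46 at the genome's shares by decile. A control-only site was found at 12 of the 29 genes. In lists of equal length the share was 10%, beside 14.8% of all sites. With 1 library left out it ran from 27.9% (all sites 31.3%) to 34.1% without TBX5 KO replicate 2 (all sites 37.9%), and was 31.5% and 33.8% without control replicate 1 and 2 (all sites 36.9% and 40.6%). With Bmp10 counted in, 45 of 180 were control-only (25%). Bmp10 was 1 of 2 genes with at least 2 sites in both control libraries and none called in all 4.

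The other ligand genes had 18 sites, of which 1 was control-only and 14 kept all 4 calls. Gdf2, which encodes BMP9, the ligand nearest to BMP10 in sequence and also a ligand of ALK1, had a single site, called in all 4 libraries. Bmp4 had 3 sites, all called in all 4, Bmp2 and Bmp5 had 1 each, called in all 4, and Bmp7 had none in both control libraries. Bmp6 had the only control-only site of these, 1 of 12, with 8 called in all 4.

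Receptor genes had more control-only sites, near the genome's share. At Acvrl1, the gene of the BMP10 receptor ALK1, 6 of 7 sites kept all 4 calls and 0 were control-only. At Bmpr1a and Acvr1, which encode the type 1 receptors ALK3 and ALK2, 8 of 28 and 8 of 24 were control-only, and Bmpr1b had no site in both control libraries. Among the type 2 receptor genes, Bmpr2 had 3 of 10, Acvr2b 1 of 5 and Acvr2a 0 of 1. At Eng, the gene of the co-receptor endoglin, 4 of 15 were control-only, with 10 that kept all 4 calls.

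Beside 55.8% of all sites, all 4 calls were kept at 9 of 17 sites of the transducer genes, 14 of 18 of the inhibitory SMAD genes, 7 of 8 of the Id genes and 6 of 18 of the antagonist genes. Smad1 had 2 of 8 control-only sites, Smad4, the shared partner of the receptor-activated SMADs, 1 of 5, and Smad5 and Smad9 none of 1 and 3. Of the inhibitory SMAD genes, Smad6 had 2 of 14 and Smad7 0 of 4. The Id genes, which are induced by BMP signals and encode inhibitors of helix-loop-helix factors, had 1 control-only site of 8, at Id3. Antagonist genes had 5 of 18, namely 4 of 10 at Bmper and 1 of 3 at Chrd, while Nog and Fst had none of 2 and 3, and Grem1 had no site. All 3 Fst sites were called in 1 TBX5 KO library, so Fst was the other gene with at least 2 sites in both control libraries and none called in all 4.

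**Figure D5:**
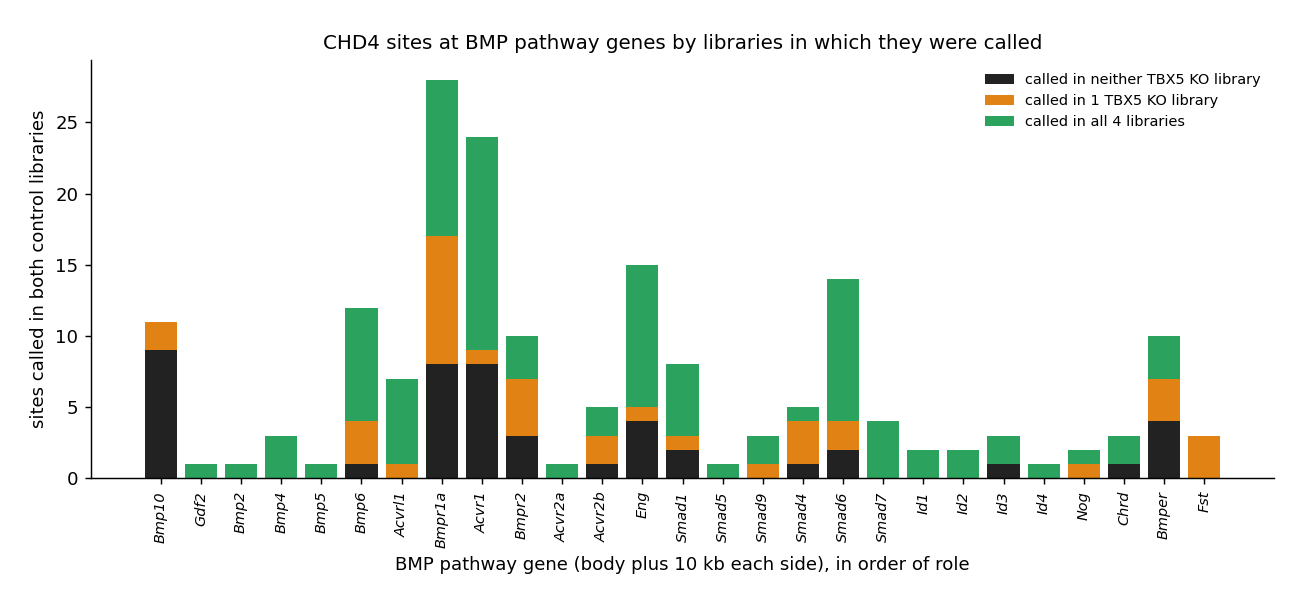
Number of sites called in both control libraries (y) at each BMP pathway gene with at least 1 such site (x, by role: ligands, receptors, co-receptor, transducers, inhibitory SMADs, targets, antagonists), stacked by how many TBX5 KO libraries called them. Bmp10 has 9 of 11 sites called in neither and none in both, while Bmpr1a and Acvr1 with 28 and 24 sites are mixed.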

How the data were processed

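CHD4 ChIP-seq peak lists of 4 libraries were used. Input libraries (4) have no list of their own here. The lists were made from ChIP and input reads, per the labels and the series design text, and the submitters' processing notes name MACS2, DiffBind and the build mm10, without versions. Which aligner, filters and caller settings were used is not stated in the sources used here. The deposited fold is the authors' ratio of summit pileup to local background. Deposited −log10 p-values and q-values belong to that summit within its library, and the deposited score follows −log10 q and was not used further. Lists began at a −log10 q of 1.30 to 1.31. Replicates were called separately, not pooled.

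Pileup and background were solved from fold, taken as pileup plus 1 over background plus 1, and the Poisson −log10 p, within 0.01 for at least 99.98% of peaks of each list, and this step and the merging were tested on simulated data. Gene ends came from a RefSeq table of GRCm38.p6, the assembly behind mm10, and promoters from the RefSeq table of the same assembly, with 32851 entries. The percentile of a peak is that of its −log10 p in its own list, the control rank is its mean over both control lists, and deciles split all sites in both control libraries by control rank. Python 3.11.15, pandas 2.3.3, numpy 2.4.6 and scipy 1.17.1 were used.

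The gene, the pathway list and the comparison genes were chosen with earlier results of these data known. With 2 libraries against 2 an exact permutation test cannot go below p = 0.333. Named genes were Bmp10, the genes of its region, BMP pathway genes, Gja5, Ryr2 and Nppa, and the 5 genes of most similar calls. Prokr1, the gene of the first all-4 site downstream, and the pathway genes without a control-only site were named after their values were seen. Alternatives were stricter −log10 q, lists of equal length, other overlaps and windows, leaving out each library, same-numbered pairs and exchanged groups. The lists give no read totals. The pathway list first held one gene more, which is not reported here.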

Additional observations from a re-analysis of the deposited data

How the results depend on the processing

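The control-only count of the Bmp10 region, 14 of 22, was 15 of 21 and 13 of 15 at −log10 q of at least 3 and 5. It was 14 of 22 with 50% overlap, 16 of 23 by summits, and 8 of 13 (61.5%) in lists of equal length, each reduced to its 61173 strongest peaks. Of all sites, 26.4% were control-only at −log10 q of at least 3, 24.3% with 50% overlap and 26.7% by summits. The count in the region was 9 of 11 (81.8%) with 10 kb, 14 of 19 with 50 kb and 19 of 35 with 250 kb around the gene, and 8 of 15 among sites strong enough to pass after the median drop. The share of 63.6% became 86.7% at −log10 q of at least 5, beside 29.1% of all sites at that limit. Leaving out 1 library gave counts of 17 to 20 and shares of 69% to 81.8%, the last without TBX5 KO replicate 2. The all-4 count of 1 was then 1 to 5, highest without TBX5 KO replicate 1 or 2 (5 and 4), and the TBX5 KO-only count 0 to 1, where a site has fewer lists to appear in. The all-4 count was 0 at −log10 q of at least 5 and with 10 or 50 kb, and 7 with 250 kb. The covered length ratio of 10.7 was 13.4 and 34.7 at −log10 q of at least 3 and 5, and 36.6, 23.1 and 4.24 with 10, 50 and 250 kb, and ran from 9.06 to 12.9 with a library left out. The BMP pathway share of 25% (Bmp10 included) was 13.8% in lists of equal length and 31.1% to 38.1% with a library left out, while that of all sites was 14.8% and 31.3% to 40.6%. With the groups exchanged the region had 0 control-only sites of 1 (0%), 14 TBX5 KO-only sites, a ratio of 0.0939 and a pathway share of 2.86% (all sites 1.91%).

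No paired test was made, since these counts were given no test. Taken as same-numbered pairs, a replicate block without a model, pair 1 gave 22 sites in control alone of 26 (84.6%), 4 in both and 2 in TBX5 KO alone. Its ratio was 12.3 and its pathway share 50.4%, while 53% of all sites in control 1 were in control alone. Pair 2 gave 23 of 29 (79.3%), 6, 1, a ratio of 9.49 and 41.2%, while 43% of all sites in control 2 were in control alone. The cause of these changes was not tested.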
